A study of Arabidopsis thaliana with 62 samples.

Results

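The genes petA, petG, petL and petN encode subunits of the cytochrome b6f complex and lie in the chloroplast genome of Arabidopsis thaliana outside the psbB operon, which holds the remaining plastid-encoded subunits petB and petD. The rule names them by gene and uses no measured value, although it was set with earlier results of these data known, and they are 4 of the 113 plastid genes tested. Their gene bodies differ widely in length, with 963 bp for petA (ArthCp035), 114 bp for petG (ArthCp041), 96 bp for petL (ArthCp040) and 90 bp for petN (ArthCp015). All 4 lie in the large single-copy region, where petL and petG are direct neighbours, petA follows cemA, and petN lies between trnC and psbM.

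The cytochrome b6f complex sits in the thylakoid membrane and passes electrons from plastoquinol to plastocyanin, which links photosystem II to photosystem I and moves protons into the thylakoid lumen. Cytochrome f, the product of petA, is the large subunit that carries a covalently bound haem and hands electrons to plastocyanin. The products of petG, petL and petN are very small subunits that each span the membrane once; in tobacco and other species loss of petG or petN prevents accumulation of the complex, whereas loss of petL mainly weakens it. Cytochrome b6 and subunit IV, from petB and petD, form the core of the complex.

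The deposited values were DNA coverage along the plastid genome, from chloroplasts that were crosslinked and divided into a membrane fraction and a stroma fraction, a procedure the labels name SOLINA. The title of the series places the work in the question of how transcribed genes are attached to the membrane. Coverage came in 2 tables, called part 1 and part 2 here, and every test was run within 1 part because the material was prepared differently. A level is the mean depth over a gene body divided by the mean depth of that library over the whole plastid genome, so 1 is the average position of the library.

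Part 1 held 30 libraries in 10 groups of 3. Its Col0 groups were wild-type seedlings aged 4 days, grown on plates in continuous light, and its sig2-2 and sig6-1 groups were seedlings of the same age and light carrying mutations in nuclear genes for sigma factors, which help the bacterial-type RNA polymerase of the plastid to find its promoters. Its Day and Night groups were Col0 plants aged 14 days, grown on soil in a cycle of 16 h light and 8 h darkness; Day plants were taken 2 h into the light and Night plants after 24 h of darkness. Part 2 held 31 libraries in 8 groups of 4, with 3 libraries in the stroma of chlm, from seedlings titled as 4 days old: Col0, sig2-2, chl27 and chlm. The labels of part 2 conflict in places, since the mutants also carry the entry wild type for genotype, so the name in the title was used, and the protocol gives 4 to 5 days. The genes CHL27 and CHLM encode enzymes of chlorophyll synthesis. All groups, controls included, were fixed for 4 h in 4% formaldehyde. In part 1 the labels describe 5 g of rosette leaves, for the seedling groups too, with fixation of isolated chloroplasts, whereas in part 2 50 seedlings were pooled and fixed before they were broken. The labels do not say that replicates came from separate cultures, so the p-values below measure the spread between these libraries, which may be technical.

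Mean depth per position, in the deposited units, lay between 95.4 and 1596 in part 1 and between 299 and 4598 in part 2. The lowest mean depth over any member was 10.6, for petL in the membrane of sig2-2, replicate 3, part 1. The closest libraries correlated at 0.995 over genes and 0 pairs held the same values. Libraries differed in evenness, here the coefficient of variation (CV) of 100-bp bins over the large single-copy region, which ran from 0.164 to 0.743 in part 1 and from 0.120 to 0.569 in part 2. The mutated genes are nuclear and the tables cover the plastid genome, so the genotypes could not be checked, and plastid DNA coverage offers no marker of the fractions. A level is a share of its library, so a change at a gene and an opposite change in the rest of the genome cannot be told apart.

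petA, the gene for cytochrome f, stood somewhat below the library average in part 1 and close to it in part 2. In part 1 its level was below 1 in 27 of 30 libraries, with a lowest value of 0.588, a median of 0.872 and a highest value of 1.10. In the membrane of Col0 it was 0.707, 0.733 and 0.702, and in the stroma of Col0 it was 0.977, 0.898 and 0.985. The membrane libraries of Col0 were thus all below its stroma libraries. In Day plants it was 0.792, 0.893 and 0.926 in the membrane and 1.05, 1.08 and 1.10 in the stroma, the highest group. Over the 10 groups the mean rose from 0.692 ± 0.102 (SD, n = 3) in the membrane of sig2-2, through 0.714 ± 0.016 in the membrane of Col0 and 0.772 ± 0.033 in the membrane of sig6-1, to 1.08 ± 0.022 in the stroma of Day. Only 3 of the 9 neighbouring steps in this order had libraries that did not overlap, namely from Col0 membrane to sig6-1 membrane, from sig6-1 membrane to sig6-1 stroma and from Night stroma to Day stroma.

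In part 2 petA lay between 0.870 and 1.13 with a median of 0.969. Its group means ran only from 0.925 ± 0.045 (SD, n = 4) in the membrane of Col0 to 1.03 ± 0.070 in the stroma of chl27, and none of the 7 neighbouring steps separated the libraries. In the membrane of Col0 the values were 0.883, 0.896, 0.939 and 0.982, and in its stroma 1.01, 0.993, 1.04 and 1.10. Among the 113 genes, ordered from the lowest group mean, petA took places 43 to 68 in part 1 and 25 to 58 in part 2, so it was a gene of middle coverage throughout.

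petG, a small subunit needed for assembly, was low in the seedlings and the Night plants of part 1 and average in Day plants. Its lowest level in part 1 was 0.217, its median 0.610 and its highest 1.07. In Col0 it was 0.624, 0.620 and 0.599 in the membrane and 0.731, 0.559 and 0.586 in the stroma, which overlap. In Night plants the means were 0.688 ± 0.217 (SD, n = 3) in the membrane and 0.668 ± 0.154 in the stroma. The lowest group was the membrane of sig2-2 with 0.394, 0.512 and 0.217, and the highest was the stroma of Day with 1.01, 1.05 and 1.07. Between these, only the step from sig6-1 membrane to Col0 membrane separated the libraries of neighbouring groups. In part 2 petG ran from 0.597 to 1.14 with a median of 1.01, its group means lay between 0.897 ± 0.201 (SD, n = 4) in the stroma of sig2-2 and 1.07 ± 0.059 in the stroma of Col0, and no neighbouring groups were apart.

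petL, whose product stabilises the complex, was the least covered of the 4 genes and among the least covered of the plastid genome. It was below the library mean in all 30 libraries of part 1, from 0.108 through a median of 0.349 to 0.927, and in 26 of the 31 libraries of part 2, from 0.215 through 0.843 to 1.08. By group mean it took places 1 to 5 from the lowest of 113 genes in part 1 and 2 to 26 in part 2. In the membrane of Col0, part 1, the levels were 0.307, 0.335 and 0.324, and in the stroma 0.415, 0.339 and 0.416. Day plants stood above these, with 0.496, 0.735 and 0.874 in the membrane and 0.719, 0.773 and 0.927 in the stroma. Night plants were low again, with 0.303, 0.215 and 0.537 in the membrane and 0.117, 0.359 and 0.295 in the stroma.

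The group means of petL in part 1 ran from 0.220 ± 0.111 (SD, n = 3) in the membrane of sig2-2 to 0.807 ± 0.108 in the stroma of Day. None of the 9 neighbouring steps separated the libraries. Within a group the highest library exceeded the lowest by up to 3.06-fold. In part 2 the lowest group was the stroma of sig2-2 with 0.448, 0.215, 0.764 and 0.932, and the highest was the membrane of chl27 with 0.967, 0.836, 0.975 and 1.08. No neighbouring step separated the libraries there.

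petN, the shortest of the 4, had the highest median level in both parts and, in part 1, the narrowest range of group means. Its level ran from 0.845 to 1.28 with a median of 1.04 in part 1, and from 0.892 to 1.25 with a median of 1.05 in part 2. In Col0 of part 1 it was 0.897, 1.02 and 0.860 in the membrane and 1.19, 1.13 and 1.28 in the stroma, so the fractions did not overlap. These 2 groups were also the ends of its order, with means of 0.925 ± 0.083 and 1.20 ± 0.077 (SD, n = 3), and no neighbouring step separated the libraries in either part.

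**Figure D1:**
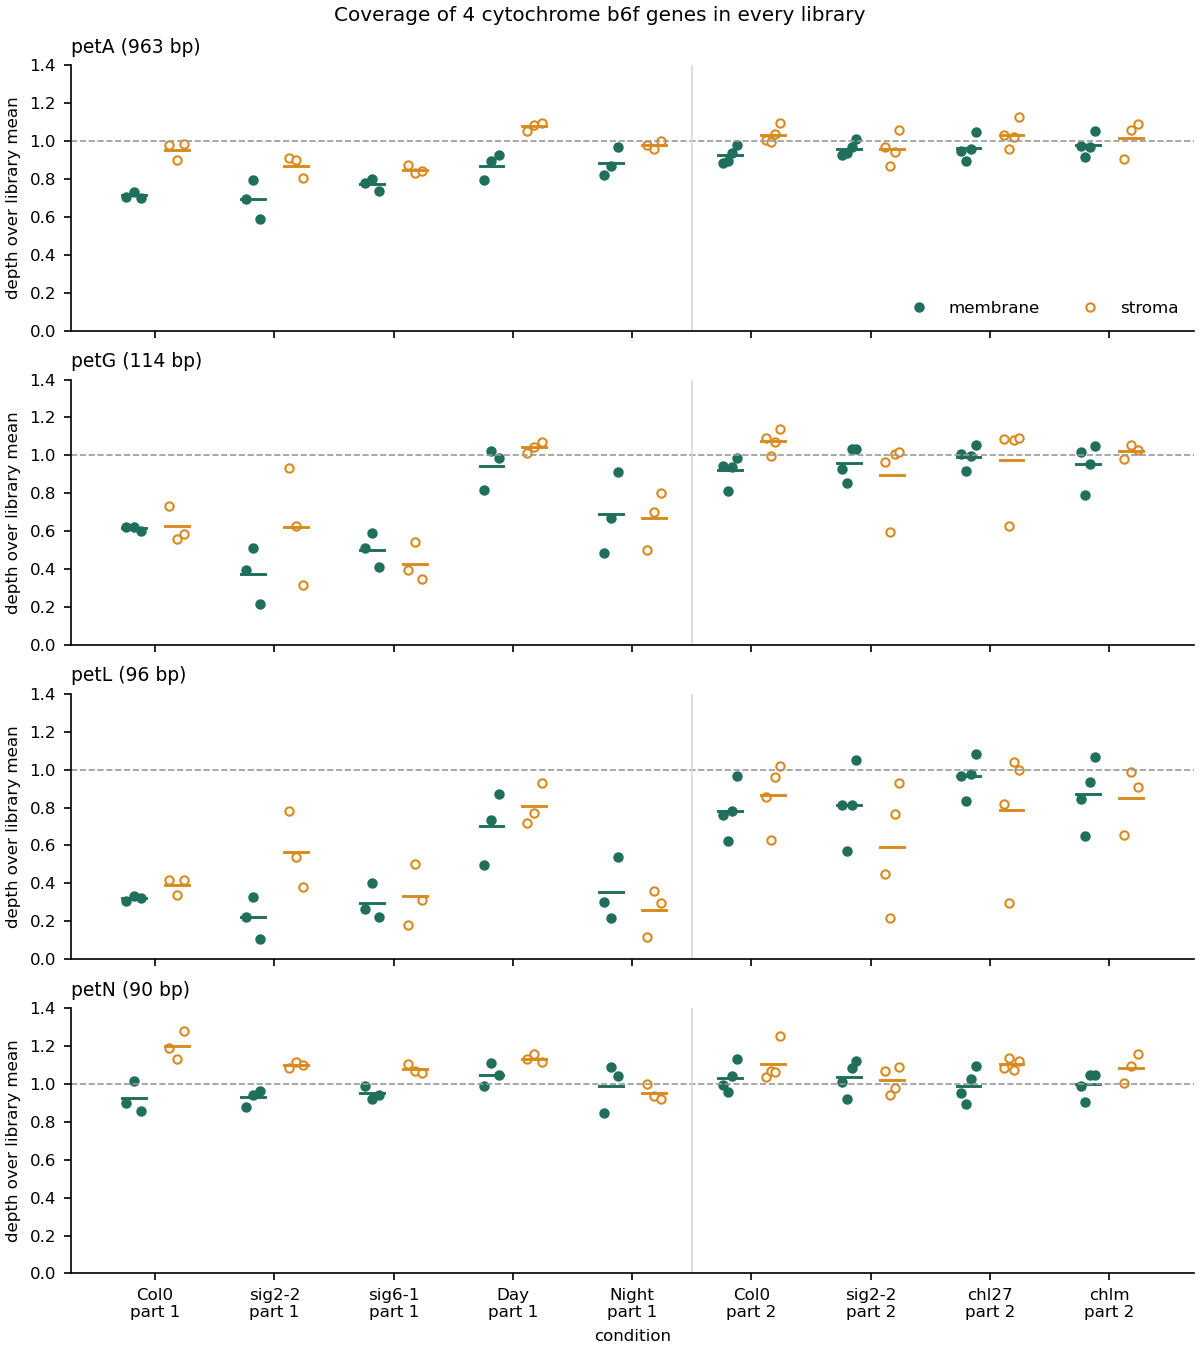
Level of each gene (vertical axis, depth over library mean) in every library, by condition on the horizontal axis and by fraction in colour, with part 1 left and part 2 right of the grey line; each point is 1 library and each dash a group mean. petL stays below the dashed line at 1 in all 30 libraries of part 1, whereas petN scatters around it, from 0.845 to 1.28.

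Within single libraries the 4 genes kept much of this order in part 1. petL was the lowest of the 4 in 29 of 30 libraries and petN the highest in 28, and 23 libraries had the full order petN, petA, petG, petL. In part 2 petL was lowest in 25 of 31 libraries and petN highest in 19, and 8 libraries had the full order. The ratio of petA to petL in a library had a median of 2.33 in part 1, from 1.06 to 8.35, and of 1.16 in part 2, from 0.960 to 4.04. The ratio of petA to petN had medians of 0.805 and 0.943, so the long gene was not the best covered one. Against the mean of the 3 short genes on the log2 scale, petA was 0.90 ± 0.38 (SD, n = 3) higher in the stroma of Night, the group with the largest gap, and differed by -0.01 ± 0.10 in the membrane of Day.

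The comparison of the long gene with the short ones divided the short genes among themselves. Between replicates of a group the level of petL varied most of all 113 genes in both parts, with an SD of 0.56 on the log2 scale in part 1 and 0.52 in part 2. petG came 3rd in part 1 with 0.40 and 26th in part 2 with 0.22. In contrast, petN, which is shorter than either, had an SD of 0.09 in part 1 and 0.11 in part 2, places 103 and 82, and petA had 0.10 and 0.09, places 98 and 88. The highest library of a group exceeded the lowest by up to 4.33-fold for petL, 2.97-fold for petG, 1.35-fold for petA and 1.29-fold for petN. Short protein-coding genes as a class were only moderately more variable than long ones: the median SD was 0.17 in part 1 for the 17 genes of 200 bp or less and 0.12 for the 62 longer ones, with 0.17 and 0.12 in part 2.

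When petA was divided into 10 tiles of 90 bp, the length of petN, the median tile was more variable than the whole gene. The tiles had a median SD of 0.16 in part 1, from 0.08 to 0.30, and of 0.15 in part 2, from 0.05 to 0.36. Every tile of petA was therefore less variable than petL, and the steadiest tiles were as steady as petN. Levels also differed along petA: the median level of a tile ran from 0.527 to 1.27 in part 1, a 2.41-fold range, and from 0.688 to 1.18 in part 2, a 1.72-fold range.

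**Figure D2:**
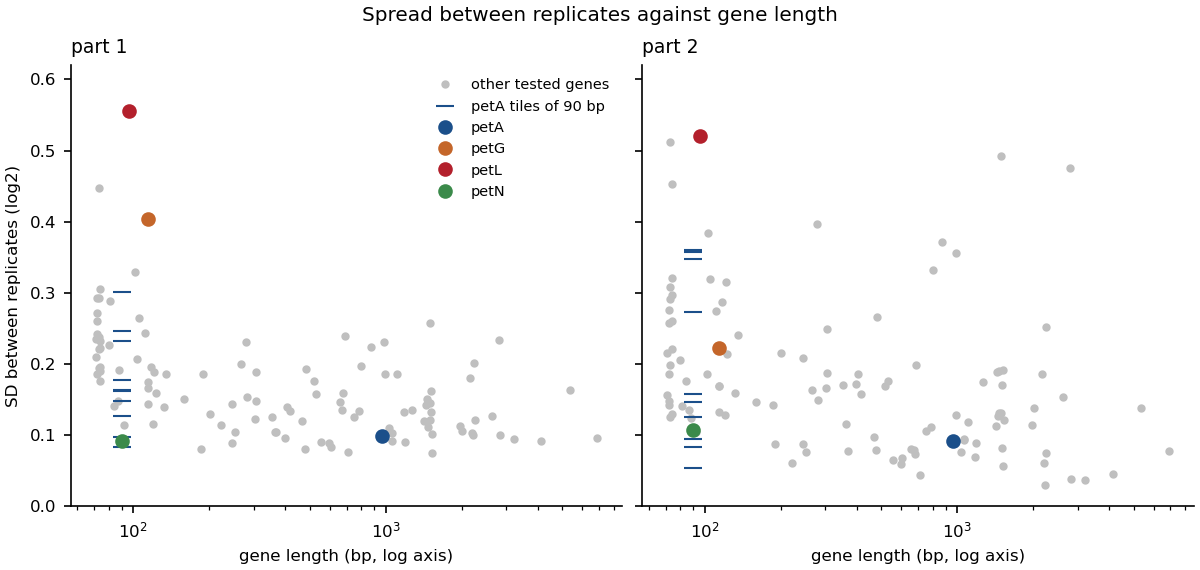
SD between replicates on the log2 scale (vertical axis) against gene length in bp (horizontal log axis) for the tested genes of part 1 (left) and part 2 (right), with the 4 genes in colour and the 10 tiles of petA as dashes at 90 bp. petL lies highest in both panels (0.56 and 0.52) whereas petN, of similar length, lies near petA (0.09 and 0.11).

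The short genes differed in where they lay on the local coverage profile. Mean coverage of each group was taken in 50-bp bins around each gene's centre. In Col0 of part 1 petL lay in a stretch of low coverage: within 650 bp of it the bins of the membrane ran from 0.149 to 1.98, a 13.3-fold range. petG lay beside that stretch, where coverage rose to 2.92 at 475 bp from its centre, a 21.6-fold range. petN lay in a well-covered stretch that ended in a gap 375 bp away, where the stroma of Col0 fell to 0.0566 against a highest bin of 1.66, a 29.4-fold range. Around the centre of petA the same range was 4.42-fold in the membrane and 7.07-fold in the stroma. The gene body of petA fills most of this window, whereas for the short genes the window is mostly flanking sequence. The ranges are therefore not like for like.

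The relief was much flatter in Day plants. The range around petL was 1.70-fold in both the membrane and the stroma of Day, around petG 1.84-fold and 1.67-fold, around petN 1.63-fold and 2.13-fold, and around petA 1.46-fold and 1.28-fold. In the stroma of Night it was 11.6-fold around petL, 10.2-fold around petG and 27.2-fold around petN. In Col0 of part 2 it stayed between 1.64-fold, around petL in the membrane, and 4.77-fold, around petN in the stroma.

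**Figure D3:**
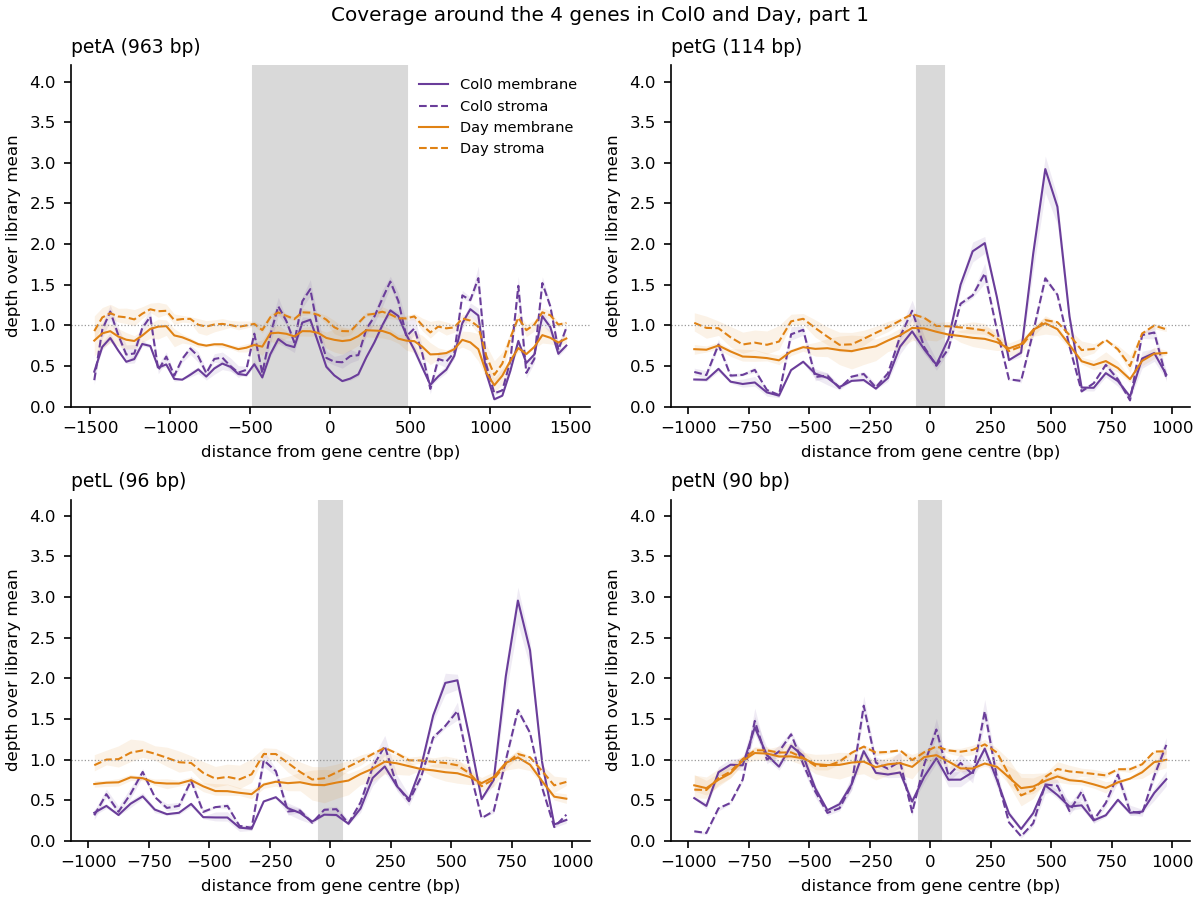
Depth over library mean (vertical axis) against distance from the gene's centre in bp (horizontal axis) in Col0 and Day of part 1, with lines for the mean of 3 libraries, bands for their lowest and highest, and grey for the gene body. In Col0 petL sits in a trough and petN on a raised stretch beside a gap. The range around petL is 13.3-fold in the membrane of Col0 and 1.70-fold in that of Day. Around petN it is 29.4-fold in the stroma of Col0 and 2.13-fold in that of Day.

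The levels of petL and petG moved with the evenness of the library within each part. In part 1, petL lay between 0.108 and 0.538 in the 19 libraries with a CV over 0.4, with a median of 0.324, had a median of 0.537 in the 9 libraries with a CV from 0.2 to 0.4, and was 0.780 and 0.927 in the 2 libraries with a CV under 0.2. In part 2 it lay between 0.781 and 1.08 in 16 libraries with a CV under 0.2, with a median of 0.971, had a median of 0.762 in the 13 libraries between the bounds, and was 0.215 and 0.299 in the 2 libraries with a CV over 0.4. Uneven libraries were thus mostly those of part 1 and even ones mostly those of part 2. The medians of petL had the same order in each part. These genes lie in the region over which the CV was taken, so their levels and the CV are not independent. Both libraries of part 2 with a CV over 0.4 were replicate 2. petG had medians of 0.559, 0.915 and 1.00 in part 1 from high to low CV, and of 0.613, 0.966 and 1.03 in part 2. petA had medians of 0.803, 0.926 and 1.00 in part 1 and of 0.913, 0.938 and 1.02 in part 2. petN had medians of 0.998, 1.05 and 1.10 in part 1 but of 1.04, 1.00 and 1.08 in part 2, with no steady order there. These sets were formed from the libraries and are not groups of the study, and the part of unevenness in the differences below was not tested. The CV itself differed between groups of part 1: it was 0.557 to 0.590 in the membrane of Col0, 0.452 to 0.484 in its stroma, 0.248 to 0.297 in the membrane of Day and 0.164 to 0.216 in the stroma of Day.

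**Figure D4:**
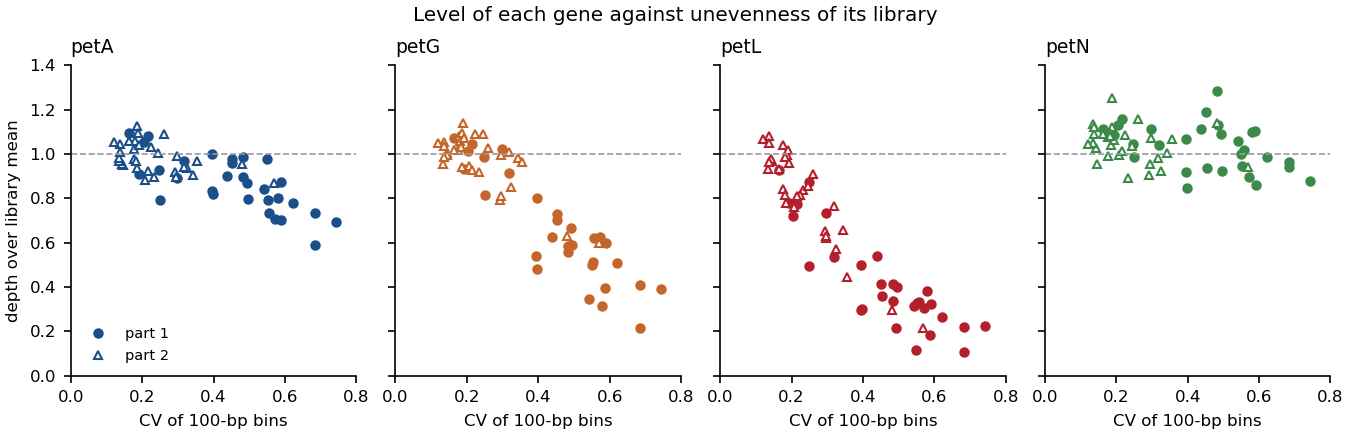
Level of each gene (vertical axis, depth over library mean) against the CV of 100-bp bins of its library (horizontal axis), with 1 point per library, filled for part 1 and open for part 2. In part 2 petL is between 0.781 and 1.08 where the CV is under 0.2, and in part 1 at most 0.538 where it is over 0.4, whereas petN stays between 0.845 and 1.28; most uneven libraries are of part 1.

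The central comparison of the design is that of the membrane with the stroma. In seedlings of Col0, part 1, cytochrome f and the small subunit gene petN were less covered in the membrane than in the stroma, as most plastid genes were on this scale. petA was lower by -0.42 on the log2 scale (SE 0.09, limma adjusted p = 0.000356) and petN by -0.38 (SE 0.08, limma adjusted p = 0.000506), each with every membrane library below every stroma library. petL differed by -0.27 (SE 0.41, limma adjusted p = 0.568), also without overlap of the libraries, and petG by -0.02 (SE 0.30, limma adjusted p = 0.96) with overlap. Thus 2 of the 4 genes passed the test, where 72.6% of all genes did so in either direction and 49.6% as lower. Libraries of the fractions were apart for 3 of the 4, against 86.7% of all genes. The median difference of all genes was -0.27, and when libraries were scaled to their median window in place of their mean it became 0.02; on that scale petA remained lower at -0.13 and past the threshold, petN was at -0.09 (limma adjusted p = 0.424), and petL and petG were at 0.02 and 0.27.

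In sig2-2 of part 1 all 4 genes passed the test as lower in the membrane, against 71.7% of all genes in either direction and 55.8% as lower; 3 of the 4 were without overlap, against 45.1% of all genes. petL had the widest gap, with 0.222, 0.330 and 0.108 in the membrane and 0.780, 0.538 and 0.382 in the stroma. The fractions did not overlap, the difference was -1.44 (SE 0.41, limma adjusted p = 0.00421), and without membrane replicate 3 it was -1.0 (limma adjusted p = 0.0509). petG had 0.394, 0.512 and 0.217 in the membrane and 0.932, 0.625 and 0.314 in the stroma, which overlap. Its difference of -0.69 (SE 0.30, limma adjusted p = 0.0438) rested on single libraries: it was -0.33 (limma adjusted p = 0.331) without stroma replicate 1, -0.34 (limma adjusted p = 0.331) without membrane replicate 3 and -1.12 (limma adjusted p = 0.00116) without stroma replicate 3. It also missed the threshold without membrane replicate 1 (limma adjusted p = 0.0557) and without stroma replicate 2 (limma adjusted p = 0.116). The call of petG was also lost when 250-bp flanks were added to the gene body.

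The stroma libraries of sig2-2 that gave petL and petG their order also differed in evenness, with a CV of 0.193, 0.439 and 0.580 for replicates 1 to 3, against 0.552 to 0.743 in the membrane. petA had 0.695, 0.792 and 0.588 in the membrane and 0.909, 0.899 and 0.803 in the stroma. These did not overlap, and the difference was -0.34 (SE 0.09, limma adjusted p = 0.0024). petN had 0.880, 0.944 and 0.963 in the membrane and 1.09, 1.11 and 1.10 in the stroma, also apart, at -0.24 (SE 0.08, limma adjusted p = 0.013), and missed the threshold without membrane replicate 1 (limma adjusted p = 0.0604). On the median scale, which moved the median of all genes from -0.25 to 0.02, petL alone of the 4 kept its call at -1.17, petA was at -0.06, petG at -0.41 and petN at 0.03.

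In the other groups of part 1 petA was the one member to pass. In Day it was lower in the membrane by -0.31 (SE 0.09, limma adjusted p = 0.00652), its 3 membrane libraries all below the 3 stroma libraries, and it stayed past the threshold on the median scale at -0.17. petG, petL and petN differed in Day by -0.15, -0.23 and -0.11 with limma adjusted p between 0.278 and 0.666; of all genes, 48.7% passed, 35.4% as lower, and 65.5% were without overlap, as petA and petN were. In sig6-1 no member passed limma's threshold, against 10.6% of all genes called. Here and below, no share of all genes is given for unadjusted p, so it does not set a member apart from other genes. Without adjustment 1 member had a limma p under 0.05, namely petN. Its values there were 0.988, 0.922 and 0.940 in the membrane and 1.10, 1.07 and 1.06 in the stroma, a difference of -0.18 (SE 0.08, limma adjusted p = 0.175) with no overlap. petA in sig6-1 was also without overlap, at -0.14 (SE 0.09, limma adjusted p = 0.324), as were 37.2% of all genes. In Night no member passed limma's threshold or an unadjusted p of 0.05, and 0% of all genes passed; petL was at 0.50 (SE 0.41, limma adjusted p = 0.737) and the other 3 between -0.15 and 0.05.

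In part 2 no member passed in any condition by limma. Unadjusted p was under 0.05 for petA in Col0 and for petN in chl27. In Col0 petA was lower in the membrane by -0.16 (SE 0.07, limma adjusted p = 0.101) with no overlap of the 4 and 4 libraries, and with the replicate number as a block, which paired the fractions here, the limma adjusted p was 0.00314. Of all genes 15.9% passed without the block and 52.2% with it, 29.2% as lower, and 31.9% were without overlap. petG in Col0 was also without overlap, at -0.22 (SE 0.15, limma adjusted p = 0.27). In sig2-2, chl27 and chlm the members' differences ran from -0.16 for petN in chl27 to 0.63 for petL in sig2-2 (SE 0.35, limma adjusted p = 0.355), and 0%, 0% and 7.96% of all genes passed. The sign of petL in sig2-2 was thus opposite in the 2 parts, a difference that was not tested.

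**Figure D5:**
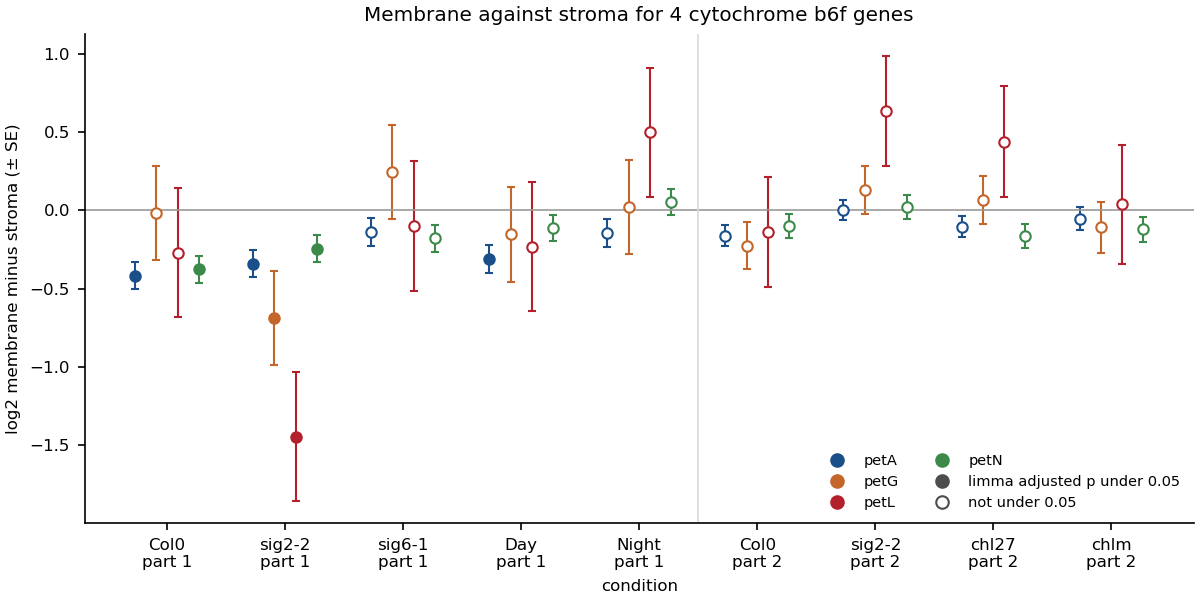
Membrane minus stroma on the log2 scale (vertical axis, points with SE bars) for each gene and condition, part 1 left and part 2 right of the grey line, filled where limma's adjusted p was under 0.05. petA lies below 0 in all 5 conditions of part 1, and the bars of petL (SE 0.41) are over 4 times as long as those of petA (SE 0.09).

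Along petA most tiles were lower in the membrane in part 1. All 10 were lower in Col0, sig2-2 and Day, and 8 in sig6-1 and 7 in Night. These values are on the scale of library means, where the median of all genes was also below 0 in Col0, sig2-2 and Day. In Col0 the tiles lay between -0.86 and -0.29 with a median of -0.44, and in Day between -0.37 and -0.20. In sig2-2 they were uneven, with tiles 1, 6, 7 and 8 between -0.83 and -0.63 and the remaining tiles between -0.30 and -0.05. In part 2 all 10 tiles were lower in Col0, 7 in chl27, 7 in chlm and 4 in sig2-2. The tiles share libraries and neighbouring fragments and are not replicates.

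On the scale of library means, the remaining plastid genes of the complex were lower in the membrane in the same 3 conditions as petA. Their values, and those of the lists and neighbours below, are given on that scale only. Median scaling, which removed calls of members in Col0 and sig2-2, is not reported for them. petB, the gene for cytochrome b6, differed by -0.55 in Col0 (limma adjusted p = 0.000492), -0.59 in sig2-2 (limma adjusted p = 0.000698) and -0.32 in Day (limma adjusted p = 0.036) of part 1. petD, for subunit IV, differed by -0.44, -0.30 and -0.36 in the same order (limma adjusted p = 0.000137, 0.00344 and 0.00148). Neither passed in sig6-1 or Night, or in part 2. Of the 27 photosynthesis genes (psa, psb, pet and rbcL), which include all 6, 13 were lower and 1 was higher in Col0; for sig2-2 the counts were 16 lower and 1 higher, for Day 9 lower and 4 higher. Over all 113 genes the counts were 56 lower and 26 higher in Col0; sig2-2 had 63 lower and 18 higher, Day 40 lower and 15 higher. The list had medians of -0.26, -0.25 and -0.21 beside -0.27, -0.25 and -0.21 for all genes. A list of 7 genes known for transcription by the polymerase of nuclear origin (ycf1, ycf2, clpP, accD and 3 rpo genes) was lower throughout in both Col0 and sig2-2, with medians of -0.43 and -0.35.

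Among the neighbours of petL and petG the difference changed sign over a short distance. Of 9 neighbours 6 were lower and 2 higher in the membrane of Col0, part 1; the higher ones were the tRNA genes trnP at 0.90 and trnW at 0.33. In sig2-2 trnP and trnW were again higher, at 1.07 and 0.34, and 5 neighbours were lower. In Day 5 neighbours were lower and none was higher. These counts stand beside 49.6%, 55.8% and 35.4% of all genes called lower in Col0, sig2-2 and Day. Around petA, psaI at -0.49 and ycf4 at -0.42 were lower in Col0. Beside petN neither trnC nor psbM passed in Col0, and psbM was lower in sig2-2 at -0.74 (limma adjusted p = 0.00294).

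Whether the gap between fractions itself changed with the genotype or the light was tested directly, and no member passed limma's threshold in any of the 7 contrasts. Unadjusted p was under 0.05 for petA in sig6-1 against Col0 of part 1, at 0.28 (SE 0.12, limma adjusted p = 0.15), and for petN in Day against Col0, at 0.26 (SE 0.12, limma adjusted p = 0.177). The widest change was that of petL in sig2-2 against Col0, at -1.17 (SE 0.58, limma adjusted p = 0.321) in part 1 and 0.77 (SE 0.50, limma adjusted p = 0.303) in part 2. Over all genes 4.42% passed in sig2-2, 1.77% in sig6-1, 7.96% in Night against Day and 9.73% in Day against Col0, and in part 2 0.885% in sig2-2 and 0% in chl27 and in chlm. The contrasts against Col0 within a part share its libraries, and Day serves both Night and Col0.

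After darkness the small subunit genes petL and petN were less covered in the stroma. petL fell from 0.719, 0.773 and 0.927 in Day to 0.117, 0.359 and 0.295 in Night, with no overlap and a difference of -1.79 (SE 0.41, limma adjusted p = 0.0014). petN fell from 1.13, 1.16 and 1.11 to 0.998, 0.935 and 0.920, also without overlap, at -0.25 (SE 0.08, limma adjusted p = 0.0131). petG differed by -0.67 (SE 0.30, limma adjusted p = 0.0578) and petA by -0.14 (SE 0.09, limma adjusted p = 0.176), each without overlap. Of all genes 59.3% passed in either direction, 27.4% as lower, and 83.2% did not overlap. The CV was 0.396 to 0.550 in the stroma of Night against 0.164 to 0.216 in that of Day. petN lost its call with both other scalings, with flanks and with the median depth over the gene, at limma adjusted p from 0.0606 to 0.305, and petG gained one without Night stroma replicate 3, at -0.82 (limma adjusted p = 0.0409).

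Of the 9 genes beside petL and petG, 4 were lower and 3 higher in the stroma of Night. There psaJ, for a photosystem I subunit, was lower by -0.69, rps18, for a ribosomal protein, by -0.50 and psbL, for a photosystem II subunit, by -0.39, whereas trnW and trnP were higher by 0.53 and 0.58; cemA beside petA was lower by -0.61 and psbM beside petN by -0.65. In the membrane no member passed limma's threshold between Night and Day, against 18.6% of all genes, and 1, petL, had an unadjusted p under 0.05, at -1.06 (SE 0.41, limma adjusted p = 0.0748). It passed without Day membrane replicate 1, at -1.29 (limma adjusted p = 0.0477), and without Night membrane replicate 3, at -1.42 (limma adjusted p = 0.0152).

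Day plants also had more coverage of petL than Col0 seedlings, in both fractions. These groups also differ in age, growth on soil or plates, and light cycle, and the causes cannot be told apart. In the membrane petA was higher in Day by 0.28 (SE 0.09, limma adjusted p = 0.00696) and petL by 1.09 (SE 0.41, limma adjusted p = 0.0227), neither with overlap, where 66.4% of all genes passed, 38.9% as higher, and 85.8% did not overlap. petG was higher without overlap at 0.61 (SE 0.30, limma adjusted p = 0.0714) and petN was at 0.18 (SE 0.08, limma adjusted p = 0.0538). The median scale moved the median of all genes from 0.19 to -0.07 and left petA at 0.02 and petL at 0.83 (limma adjusted p = 0.688 and 0.0789). petL also missed the threshold without Col0 membrane replicate 1 (limma adjusted p = 0.0536) and without Day membrane replicate 2 or 3 (limma adjusted p = 0.059 and 0.092), and petN passed it without Col0 membrane replicate 2 or Day membrane replicate 1 (limma adjusted p = 0.0172 and 0.0336).

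In the stroma petL was higher in Day than in Col0 by 1.05 (SE 0.41, limma adjusted p = 0.0327) and petG by 0.75 (SE 0.30, limma adjusted p = 0.0348), both without overlap, where 62.8% of all genes passed, 30.1% as higher, and 80.5% did not overlap. petA was higher without overlap at 0.18 (SE 0.09, limma adjusted p = 0.0802) and petN was at -0.08 (SE 0.08, limma adjusted p = 0.402), which passed the test as lower in Day on the median scale, at -0.19 (limma adjusted p = 0.0426), and with large single-copy scaling, at -0.28 (limma adjusted p = 0.00886). The calls of petL and petG were narrow: petG missed the threshold without any 1 of 5 libraries, all but Col0 stroma replicate 1, with limma adjusted p from 0.0596 to 0.1, and petL without Col0 stroma replicate 2 or 3 or Day stroma replicate 2 or 3, from 0.0569 to 0.099. Both also missed it with large single-copy scaling (limma adjusted p = 0.0564 for petG and 0.0549 for petL), and petG with flanks (limma adjusted p = 0.136). On the petG side of the pair, trnW and trnP were lower in the stroma of Day by -0.77 and -0.53 and in the membrane by -1.29 and -1.49. Among the neighbours of the other members, psbM was higher by 0.80 and 0.86 and cemA by 0.66 and 0.68 in stroma and membrane.

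The sigma factor mutants gave no called member within a fraction of part 1 by limma. In the membrane of sig2-2 petG was below Col0 in every library, at -0.80 (SE 0.30, limma adjusted p = 0.101), the one member with an unadjusted p under 0.05, and it passed without sig2-2 membrane replicate 2, at -1.07 (limma adjusted p = 0.0184); 10.6% of all genes passed and 20.4% did not overlap. In the stroma of sig2-2 petN was without overlap at -0.12 (SE 0.08, limma adjusted p = 0.779), where 0% passed and 13.3% did not overlap. In sig6-1 petG was below Col0 in every library of the membrane at -0.30 (SE 0.30, limma adjusted p = 0.598) and of the stroma at -0.56 (SE 0.30, limma adjusted p = 0.302). petA in sig6-1 was apart from Col0 in both fractions but in opposite directions, at 0.11 in the membrane and -0.17 in the stroma (limma adjusted p = 0.495 and 0.302). petN in the stroma of sig6-1 was also below Col0 in every library, at -0.16 (SE 0.08, limma adjusted p = 0.302). Of all genes 10.6% passed in the membrane of sig6-1 and 0% in its stroma, and 39.8% and 34.5% did not overlap.

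In part 2 the stroma of sig2-2 was the one place where members passed against Col0 with the replicate number as a block, and without it none did over all libraries. petL was 0.858, 0.628, 0.961 and 1.02 in Col0 and 0.448, 0.215, 0.764 and 0.932 in sig2-2. The groups overlapped, but sig2-2 was lower in each of the 4 numbered pairs. In the fit without pairs the difference of petL was -0.74 (SE 0.35, limma adjusted p = 0.12). petA was at -0.11, petG at -0.29 and petN at -0.11, and none of the 4 passed. With the number as a block all 4 passed as lower, at limma adjusted p = 0.0046 for petL, 0.0073 for petA, 0.0125 for petG and 0.036 for petN; deviations of same-numbered libraries correlated at 0.305 to 0.833 over genes here. The share of all genes called rose too, from 19.5% to 69%, and 40.7% of all genes were called lower. The block was a single shift per replicate number over all groups of part 2. These include chl27, which did not meet the pairing check against Col0 in either fraction. Without sig2-2 stroma replicate 4 petL passed without the block, at -1.02 (limma adjusted p = 0.0256). In the membrane of sig2-2, and in both fractions of chl27 and chlm, no member passed against Col0 by limma and 0% of all genes passed.

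The replicate number marked a shared level in part 2. Replicate 2 was the lowest of its group in all 8 groups for petL and for petG, and in 6 for petA and for petN. Replicate 4 was the highest in 8 groups for petA, 7 for petG, and 6 for petL and for petN. The labels do not say what the libraries of one number have in common. The CV of replicate 2 was 0.569 in the stroma of sig2-2 and 0.481 in the stroma of chl27, against at most 0.355 in the other libraries of part 2.

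The genes whose group means moved most like a member's were found from the mean absolute difference of centred log2 levels over the 10 groups of part 1 or the 8 groups of part 2. In part 1 petA moved most like rps4 at 0.025, clpP at 0.031 and ycf4 at 0.038, against a median of 0.16 over genes, and in part 2 most like petD at 0.013. petN moved most like ndhJ at 0.054 in part 1 and, in part 2, most like petA at 0.027. The nearest genes to petL were more distant, with psbM at 0.24 in part 1 and ccsA at 0.08 in part 2, against medians of 0.48 and 0.20. petG was nearest to psbM at 0.12 in part 1 and to rpl16 at 0.029 in part 2. Among the members, petN was the 40th nearest gene to petA in part 1 and the 9th in part 2, and petG the 7th nearest to petL in part 1 and the 17th in part 2. petL was the 98th nearest to petA in part 1 and the 100th in part 2, and petG the 85th and the 44th.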

How the data were processed

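Plastid DNA coverage was analysed in 61 of 62 samples. The authors deposited 2 tables of coverage, 1 row per position of the plastid genome and 1 column per library, a signal whose scaling is not stated; the headers give sample names only. Per the submitters' processing notes, reads were handled with Trim Galore 0.4.1, Bowtie2 2.2.8.9 and bedtools 2.25.0 on build TAIR10; parameters, and the treatment of reads that map to both inverted repeats, are not given in the sources used here. The column of chlm stroma replicate 1 held the position in place of coverage, so 1 column was left out.

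Gene bodies came from a table of TAIR10.1 with 129 plastid entries, of which 15 mirrored pairs in the inverted repeats were merged, and 113 genes were tested; coordinates are not printed. Mean depth per gene was divided by mean depth per library and taken as log2. limma 3.58.1 in R 4.3.3 fitted 1 mean per group over all libraries of a table, with Benjamini-Hochberg adjustment over all genes within a contrast and a threshold of 0.05, and was checked on simulated data. Python 3.11.15, numpy 2.4.6, pandas 2.3.3 and matplotlib 3.10.9 served for the rest. Coverage counts bases, not independent fragments, so no counting intervals are given. Shares of all genes that passed or were called refer to adjusted p, and no share is given for unadjusted p.

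The members, the gene lists and the rules were chosen with earlier results of these data known. Named besides the members were petB, petD, listed neighbours, photosynthesis genes, genes of the nuclear-encoded polymerase, short genes and the 3 genes most alike in pattern. Replicate numbers were taken to pair membrane and stroma where every same-numbered pair deviated together at a correlation over 0.1, namely in sig6-1 and Day of part 1 and Col0, chl27 and chlm of part 2, where the block result is given if it changed a call. Between conditions in one fraction the same check held for the membrane of sig6-1, for both fractions of Night against Day, and in part 2 for both fractions of sig2-2 and of chlm against Col0. Alternatives were scaling to the median 500-bp window or to the large single-copy region, gene body plus 250-bp flanks, median depth over the gene, a fit on only the groups compared, a prior variance by gene length, the replicate block, and leaving out each library.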

Additional observations from a re-analysis of the deposited data

Results flagged for a closer look

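Each of the 4 genes was examined in the groups of 4 libraries, 28 sets in all that share libraries, and 3 sets held a library that stood apart by Dixon's criterion, which flags about 1 set in 20 by chance. petG in the stroma of chl27 of part 2 was 0.628 in replicate 2, far below the other 3 libraries of the group. petG in the stroma of sig2-2 of part 2 was 0.597 in replicate 2, again the lowest by a wide gap. petN in the stroma of Col0 of part 2 was 1.25 in replicate 4, above the other 3. The first 2 libraries had the highest CV of part 2, 0.481 and 0.569, and the part of unevenness in these values was not tested.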

How the results depend on the processing

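The number of members past the threshold moved in these cases, and the cause was not tested. Shares of all genes called under these settings are not given here, apart from those for the block above. With the block in part 2 they rose from 15.9% to 52.2% in Col0 and from 19.5% to 69% in the stroma of sig2-2. The counts below are thus no result about the members as against other genes. For membrane against stroma in part 1 it went from 2 to 1 in Col0 with median scaling, from 4 to 1 in sig2-2 with median scaling, with large single-copy scaling and with only the groups compared, and from 1 to 2 in Day with flanks. In sig2-2 petN reversed to 0.032 with median scaling (limma adjusted p = 0.753) and to 0.029 with large single-copy scaling (limma adjusted p = 0.803). Between fractions and conditions it went from 0 to 1 in sig2-2 with large single-copy scaling and in sig6-1 with large single-copy scaling and with only the groups compared. Within a fraction it went from 0 to 1 in the membrane of sig2-2 with flanks and with only the groups compared, in the membrane of sig6-1 with large single-copy scaling, and in the membrane of Night with large single-copy scaling and with only the groups compared. It went from 2 to 1 in the stroma of Night against Day with median and with large single-copy scaling, from 2 to 0 in the membrane of Day against Col0 with both, and from 2 to 1 in its stroma with large single-copy scaling, where petG and petL lost their calls and petN gained one in the opposite direction. In part 2 it went from 0 to 2 in Col0 membrane against stroma with only the groups compared.

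Leaving out 1 library gave 2 to 4 members for membrane against stroma in sig2-2 of part 1, 0 to 1 for the membrane of sig2-2 against Col0 and of Night against Day, 2 to 3 for the stroma of Night against Day, and 1 to 3 and 0 to 2 for the membrane and the stroma of Day against Col0. In part 2 it gave 0 to 1 for the stroma of sig2-2 against Col0. With the replicate block the count went from 0 to 1 for the change of the gap in sig2-2 of part 1 (petG, limma adjusted p = 0.0289) and of part 2 (petA, limma adjusted p = 0.0218), where the numbers do not pair all the libraries; in part 2 it went from 0 to 1 in Col0 and from 0 to 4 in the stroma of sig2-2 against Col0, as reported above. The block moved no other count of members. Median depth over the gene and a prior variance by gene length moved no count by over 1.5 times, but in the stroma of Night against Day the median depth exchanged petN for petG (limma adjusted p = 0.0431), and flanks exchanged petN for petA (limma adjusted p = 0.0232); in the stroma of Day against Col0 flanks exchanged petG for petA. A further 121 differences changed sign under some setting with neither value past the threshold. The SE of petL, over 4 times that of petA, limits what could be detected at petL.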
